A study of Mus musculus with 4 samples.

Results

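The 9 genes described here encode transcription factors of the pancreatic duct and of the progenitors from which it forms: Sox9, Onecut1, Onecut2, Foxa1, Foxa2, Prox1, Glis3, Pdx1 and Nkx6-1. They were taken by gene symbol from tables of 28644 transcripts of 22869 symbols. Each of the 9 has a single RefSeq transcript there, so no choice between transcripts was needed. The libraries came from primary pancreatic ductal cells of adult C57BL/6 mice, isolated before any induction and then cultured. The group labelled Hhex knockout (n = 2) has the genotype Sox9CreER;HhexL/L, which is floxed Hhex alleles with a tamoxifen-inducible Cre under the Sox9 promoter. The control group (n = 2) has the genotype HhexL/L and consists of littermates. Both groups received 500 nM 4-hydroxytamoxifen in culture for 4 days. HHEX is a homeobox factor of liver and pancreas development, and the design asks which transcripts of ductal cells depend on it.

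Cre was present in the labelled-knockout group alone, and the design has no animals with Cre and intact Hhex. Effects of the Cre allele and of Hhex deletion therefore cannot be told apart, for Sox9 in particular. Deletion is limited to cells in which the Sox9 promoter is active.

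Pancreatic ducts arise from the trunk of the embryonic epithelium, in which Sox9, Onecut1, Pdx1, Nkx6-1, Prox1 and the Foxa pair are all expressed. As cells leave the trunk, Pdx1 and Nkx6-1 become mainly endocrine factors, while Sox9, the Onecut genes and Foxa2 stay on in ducts. FOXA proteins open closed chromatin for other factors, and Notch signalling maintains Sox9 in the progenitors.

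Each library held between 25257778 and 39582625 counts. Levels are CPM, counts scaled to a common library total with the trimmed mean of M values (TMM), unless they are named as the authors' deposited RPKM, which is also divided by transcript length. Hhex itself measured 23.6 and 39.0 CPM in the libraries labelled knockout against 24.8 and 17.7 CPM in the controls (log2 fold change 0.55 ± 0.27 SE, edgeR adjusted p = 0.734). Its level thus gives no sign of a deletion, and those libraries are named by their label throughout. Which part of Hhex was deleted is not stated in the sources used here, and reads outside it would be counted. Labelled-knockout replicate 2 was the only female library, with 304 CPM of Xist against at most 1.75 CPM in the other 3. The keratin genes Krt18, Krt8, Krt7 and Krt19, which mark simple and ductal epithelium, stood between 553 and 9242 CPM in every library. Among genes of other pancreatic cells, summed CPM of 13 acinar genes lay between 3.12 and 6.41, with Amy2a5 at 0 counts in every library, and that of 19 endocrine genes between 2.60 and 6.78.

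Upstream sequence was available in the RefSeq promoter table (GRCm38.p6) for 7 of the 9 genes, in 10 windows of 250 bases before an annotated start. The files were made on mm9, and these coordinates locate nothing that was measured. Windows were searched on both strands for short cores bound by the families described here: TGTTTNC for FOXA, ATCAAT for ONECUT and ACAANG for SOX, where N is any base. Windows of Foxa2 and Foxa1 are printed because these close relatives stood far apart in level per length (RPKM). Capitals mark a match to any of the 3 cores, on either strand, 5′ to 3′ on the gene's own strand and ending at the base before the start. The Foxa2 window (chr2:148046970-148047219, minus strand) lies before the start of the transcript that was counted, NM_010446. The Foxa1 window (chr12:57546112-57546361, minus strand) is the one the table gives for Foxa1, and its start is not that of the counted transcript NM_008259 in GENCODE M21.
Foxa2: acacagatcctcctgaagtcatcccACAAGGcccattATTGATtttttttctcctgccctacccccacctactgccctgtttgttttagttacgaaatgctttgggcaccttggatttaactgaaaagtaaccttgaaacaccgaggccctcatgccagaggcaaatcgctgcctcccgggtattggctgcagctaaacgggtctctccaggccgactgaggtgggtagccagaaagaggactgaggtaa
Foxa1: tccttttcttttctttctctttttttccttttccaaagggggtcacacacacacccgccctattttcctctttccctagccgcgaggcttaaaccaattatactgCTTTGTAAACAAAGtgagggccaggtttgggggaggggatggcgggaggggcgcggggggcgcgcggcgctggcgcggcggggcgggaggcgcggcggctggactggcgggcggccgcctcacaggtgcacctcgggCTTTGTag
In Foxa2 the ONECUT core reads ATTGAT and begins 213 bases before the start, and a SOX core begins 225 bases before it. In Foxa1 the FOXA core reads GTAAACA and begins 141 bases before the start, and it shares bases with a SOX core on each side, beginning at 145 and 137 bases. A further SOX core lies 8 bases before the start. Of all 32851 windows in the table, 17.8% held the FOXA core, 6.72% the ONECUT core and 36.3% the SOX core. A SOX core was also in 1 of the other Foxa2 windows and in both Prox1 windows, and a FOXA core in 1 Prox1 window. None of the 3 cores was in the windows of Onecut1, Glis3, Pdx1 and Nkx6-1, which says only that these letters are absent there. Matches describe the letters and are not measured binding.

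The 9 genes spanned a wide range of levels, with Foxa2 at the top and Nkx6-1 at the edge of detection. Per length, Foxa2 had 17.6 and 18.4 RPKM in the libraries labelled knockout and 16.9 and 18.5 RPKM in the controls. It was the highest of the 9 in all 4 libraries, and its range did not overlap that of Sox9, the next gene by mean. Sox9 had 9.99 and 8.04 RPKM in the libraries labelled knockout and 3.07 and 3.94 RPKM in the controls. Glis3 followed with 5.95 and 5.40 RPKM against 4.43 and 5.45 RPKM. Sox9 stood above Glis3 in both libraries labelled knockout, 1.68 and 1.49 times, and below it in both controls, at 0.694 and 0.724 times, so their order per length differed between the groups.

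Onecut2 averaged 2.86 RPKM over the 4 libraries and Pdx1 1.34 RPKM. The ranges of Glis3 and Onecut2 overlapped through labelled-knockout replicate 2 alone, and Glis3 stood above Onecut2 in the other 3 libraries. Those of Onecut2 and Pdx1 overlapped as well. A gap followed, since Pdx1 was never below 0.940 RPKM while Prox1, the next gene, was never above 0.599 RPKM. Prox1 and Foxa1 averaged 0.393 and 0.375 RPKM and could not be ordered. Onecut1 reached at most 0.233 RPKM and Nkx6-1 at most 0.0718 RPKM, and the range of each overlapped that of the gene above it. Within libraries, Foxa1 stood above Onecut1 in all 4, and Onecut1 above Nkx6-1 in 3.

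**Figure D1:**
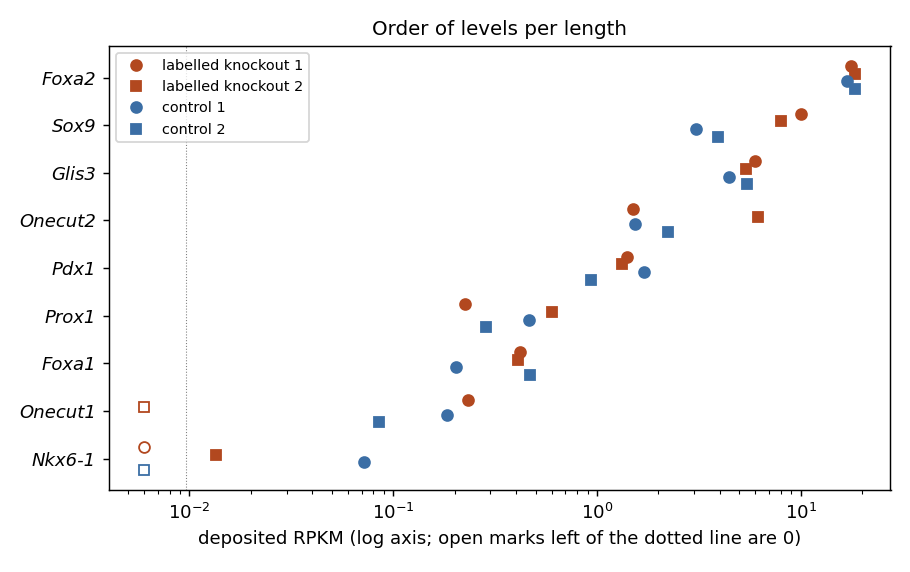
Deposited RPKM on a log axis for the 9 genes, ordered by their mean, with 1 mark per library. Open marks stand for a value of 0. The 4 Foxa2 marks lie between 16.9 and 18.5 RPKM, and the 2 Sox9 marks of the libraries labelled knockout lie to the right of both control marks.

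Within each pair of close relatives a single gene carried most of the signal. Foxa2 exceeded Foxa1 by 41.9 and 44.8 times in RPKM in the libraries labelled knockout and by 83.4 and 39.6 times in the controls. Onecut2 exceeded Onecut1 by 6.43 times in labelled-knockout replicate 1 and by 8.36 and 26.2 times in the controls. In labelled-knockout replicate 2 Onecut1 had 0 counts, where 3 counts, used here as a floor, would be 0.0968 CPM.

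None of the 8 genes that could be tested passed the threshold between the groups, an edgeR quasi-likelihood p under 0.05 after Benjamini-Hochberg adjustment over 20949 transcripts. Over all transcripts 32 passed, or 0.153%, made up of 0.105% higher and 0.0477% lower in the libraries labelled knockout. At an unadjusted p under 0.05, which 7.51% of all transcripts reached, 1 of the 8 stood, Sox9. Sox9 was also the single gene of the 9 that any other test on all 4 libraries called. DESeq2 called it beside 1.67% of its transcripts, the edgeR exact test beside 1.29%, the robust edgeR fit beside 0.306% and edgeR without X and Y genes beside 0.213%. Limma with a variance trend called it beside 0.907% on log2(RPKM + 1) and beside 1.05% on log2(RPKM + 0.1). The median log2 fold change of the 8 was 0.08, against -0.01 for the 15892 tested genes. The ninth gene, Nkx6-1, had too few counts to be tested.

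**Figure D2:**
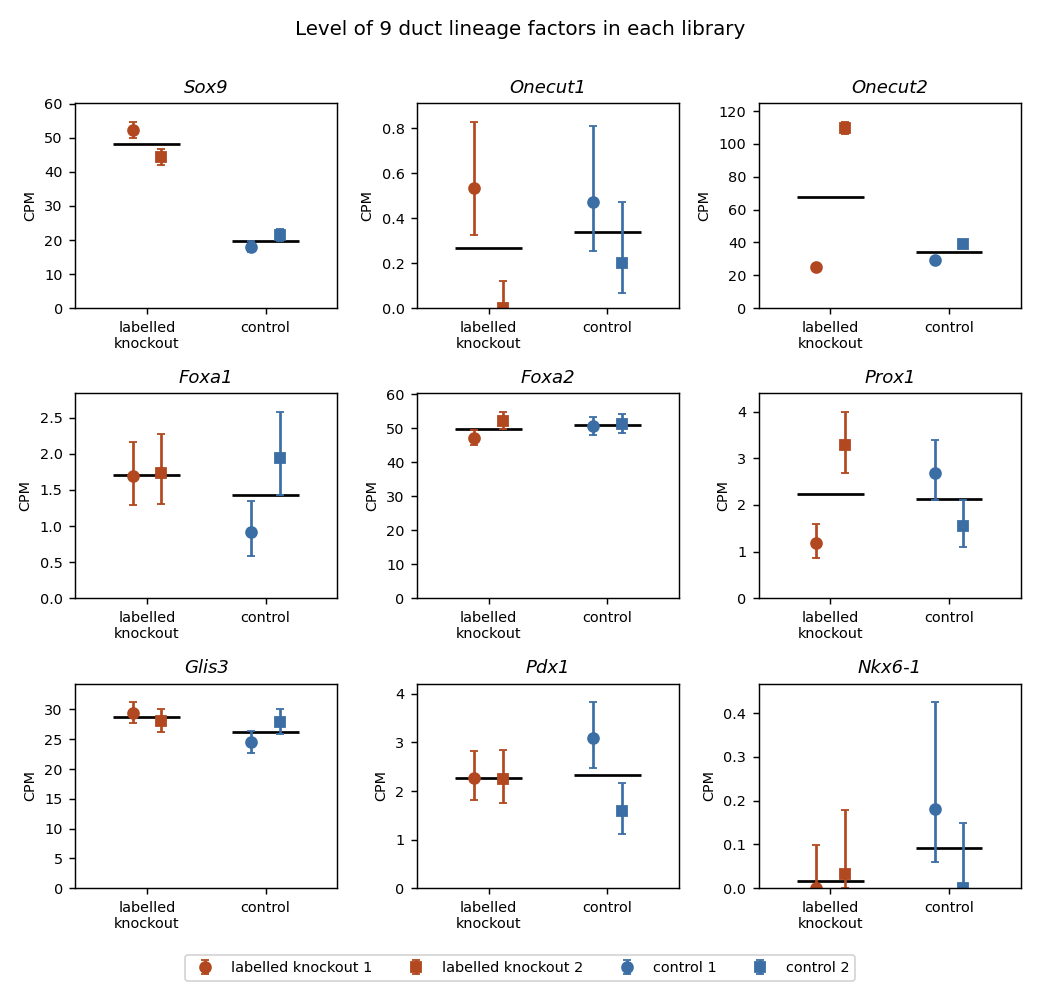
CPM of each of the 9 genes in each library, with the libraries labelled knockout left of the controls. Vertical lines are 95% Poisson intervals of a single count and horizontal bars are group means. Sox9 lies between 44.3 and 52.3 CPM in the libraries labelled knockout and between 18.0 and 21.4 CPM in the controls, while 1 library alone, labelled-knockout replicate 2, is high for Onecut2.

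Sox9 (NM_011448), an HMG-box factor that maintains pancreatic progenitors and remains on in adult ducts, showed the largest difference of the 9. It had 1952 and 1373 counts in the libraries labelled knockout and 494 and 527 counts in the controls. In scaled units it averaged 48.3 ± 5.66 CPM in the libraries labelled knockout and 19.7 ± 2.38 CPM in the controls (SD, n = 2 each). Both libraries labelled knockout were above both controls, and the gap between the groups was wider than the spread within either. The log2 fold change was 1.30 ± 0.17 (SE), a ratio of 2.46 with a 95% interval of 1.86 to 3.24. Its edgeR adjusted p was 0.0512, just above the threshold, and 24 of the 15892 tested genes had a smaller p. Whether Sox9 passed depended on the test. Over 12 other ways of testing the counts with all 4 libraries its adjusted p (edgeR or DESeq2) ran from 3.53e-06 to 0.103, and it passed in 4. Over 24 limma settings on the deposited RPKM, of which 22 were added after the data were seen, its adjusted p ran from 0.00248 to 0.964 and it passed in 14, with 0 of the 4 that used no filter on low values. Those limma settings called between 0 and 1.58% of transcripts. The log2 fold change stayed between 1.15 and 1.34 in all 36.

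Summed levels of genes listed for other cell types overlapped between the groups in some lists and not in others. The summed level of 5 mesothelial genes was 3141 and 4489 CPM in the libraries labelled knockout and 1586 and 2015 CPM in the controls, without overlap. Nearly all of it was Msln, the mesothelin gene, at 3139 and 4486 CPM against 1584 and 2013 CPM, and of the 4 tested genes 2 were positive and 2 negative. For 12 fibroblast and stellate genes the sum was 50.4 and 60.7 CPM against 39.7 and 43.6 CPM. The highest of them in the libraries labelled knockout was Vim, the vimentin gene, at 39.0 and 47.9 CPM against 12.3 and 19.9 CPM, whereas the other 9 of the 10 tested genes had negative fold changes. Sparc, a matrix protein gene of stromal cells, had 4.53 and 3.48 CPM against 11.99 and 13.1 CPM. For 10 hepatocyte genes the sum was 53.7 and 6.52 CPM against 88.8 and 61.2 CPM, and all 6 tested had negative fold changes. Most of that sum in all but labelled-knockout replicate 2 was Trf, the transferrin gene, at 51.8 and 2.65 CPM against 79.1 and 53.7 CPM, while Alb, the albumin gene, reached at most 0.765 CPM. Macrophage genes summed to 127 and 213 CPM against 163 and 148 CPM. Of this, Cd14 made up 108 and 205 CPM against 151 and 135 CPM. Cd68 had 16.2 and 3.94 CPM against 7.36 and 10.8 CPM. Csf1r, Itgam, Emr1, Lyz2 and Ptprc were each at 1.49 CPM or less. Endothelial genes summed to 1.5 and 3.97 CPM against 5.61 and 1.54 CPM, and the macrophage and endothelial sums both overlapped between the groups. Tested were 4 mesothelial, 10 fibroblast and stellate, 6 hepatocyte, 6 macrophage and 4 endothelial genes, and edgeR called 0 of them. At an unadjusted edgeR p under 0.05, which 7.51% of all transcripts reached, stood 4: Msln, Vim, Sparc and the apolipoprotein gene Apob. DESeq2 called all 4, beside 1.67% of its transcripts. Limma-trend on log2(RPKM + 1) called 2, Sparc and Vim, beside 0.907%. The single genes of these lists were named after their values were seen. The part of these lists in the Sox9 difference was not tested. In a bulk culture, fewer cells of a type and less RNA per cell cannot be told apart.

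The 5 genes whose profile over the 4 libraries lay nearest to that of Sox9, among 10194 with a mean of at least 5 CPM, were Suox, Scnn1a, Oat, Slc43a3 and Bcar3. Nearness was the root mean square difference of log2 CPM centred on each gene's mean, and it was between 0.109 and 0.135 for these 5. Suox, the sulfite oxidase gene, had 62.6 and 51.7 CPM in the libraries labelled knockout and 21.7 and 30.2 CPM in the controls. Scnn1a, which encodes a subunit of the epithelial sodium channel, had 36.2 and 31.7 CPM against 15.0 and 14.6 CPM. Oat, the ornithine aminotransferase gene, had 164 and 139 CPM against 65.2 and 79.9 CPM. Slc43a3, a solute carrier gene, had 19.8 and 17.1 CPM against 8.42 and 9.04 CPM, and Bcar3, an adaptor protein gene, had 117 and 105 CPM against 41.7 and 60.8 CPM. Like Sox9, all 5 were higher in both libraries labelled knockout, which follows from how they were chosen. With 4 libraries such likeness is a description of these samples.

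Onecut2, a cut-homeodomain factor that overlaps in function with Onecut1 in the mouse liver, was high in a single library. It had 25.3 and 110 CPM in the libraries labelled knockout and 29.1 and 39.0 CPM in the controls. Labelled-knockout replicate 2 stood 2.81 times above the next library, whereas replicate 1 was the lowest of the 4, so the groups overlapped. The log2 fold change was 0.98 ± 0.57 (SE) with an edgeR adjusted p of 0.792. Without labelled-knockout replicate 2 it was -0.44 (edgeR adjusted p = 0.07495) and without replicate 1 it was 1.67 (edgeR adjusted p = 2.948e-25), so its direction was set by which library stood for the group. With a single library in a group edgeR called 7.86% of transcripts without labelled-knockout replicate 1, 8.69% without replicate 2, 0% without control replicate 1 and 0.0131% without control replicate 2. Replicate 2 was at least 2-fold above each other library in 136 of the 15892 tested genes, or 0.856%. Replicate 2 was also the female library, and sex cannot be told apart from its other traits.

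Onecut1, the hepatocyte nuclear factor 6 gene required for duct formation in mice, was barely detected. It had 20 and 0 counts in the libraries labelled knockout and 13 and 5 counts in the controls, or 0.536 and 0 CPM against 0.474 and 0.203 CPM. The groups overlapped, and the 95% interval of the ratio ran from 0.121 to 5.92, so a large change in either direction was not detectable with these counts and this spread. The 95% counting intervals of the libraries labelled knockout, 0.327 to 0.827 CPM and 0 to 0.119 CPM, did not overlap.

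Foxa2, a forkhead factor of endoderm that acts with Foxa1 upstream of Pdx1, was the steadiest of the 9. It had 47.2 and 52.1 CPM in the libraries labelled knockout and 50.7 and 51.4 CPM in the controls. The control values lay between those of the libraries labelled knockout. The log2 fold change was -0.04 ± 0.14 (SE, edgeR adjusted p = 0.973), a ratio of 0.973 with a 95% interval of 0.775 to 1.22. Foxa1 had 1.69 and 1.74 CPM against 0.911 and 1.95 CPM. The controls enclosed both libraries labelled knockout, and the 95% interval of the Foxa1 ratio, 0.571 to 2.59, was far wider than that of Foxa2.

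Glis3, a zinc finger factor of ducts and beta cells whose loss in humans causes neonatal diabetes, was expressed evenly. It had 29.4 and 28.1 CPM in the libraries labelled knockout and 24.5 and 27.9 CPM in the controls. The groups did not overlap in CPM, though the nearest values of the 2 groups were almost equal, and they overlapped in RPKM. The log2 fold change was 0.14 ± 0.15 (SE, edgeR adjusted p = 0.914), with a 95% interval of the ratio of 0.857 to 1.41. Of the 8 tested genes, Sox9 and Glis3 were the 2 without overlap in CPM, both with higher values in the libraries labelled knockout, where 19.1% of all transcripts were higher without overlap and 17.0% lower.

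Prox1, a homeodomain factor of pancreatic progenitors and of lymphatic endothelium, varied between libraries without regard to the groups. It had 1.18 and 3.29 CPM in the libraries labelled knockout and 2.70 and 1.54 CPM in the controls. The lowest and the highest library both belonged to the labelled-knockout group, and the log2 fold change was 0.02 ± 0.55 (SE, edgeR adjusted p = 0.996). Among lymphatic endothelial genes, Ccl21a had 0 counts in every library. The summed level of the 5 listed was 39.1 and 56.5 CPM against 64.1 and 41.6 CPM, mostly Flt4 at 29.0 and 51.2 CPM against 40.6 and 36.0 CPM, so these groups overlapped as well.

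Pdx1, the homeodomain factor of pancreatic progenitors and beta cells, was present at a low level. It had 85 and 70 counts in the libraries labelled knockout and 85 and 39 counts in the controls, or 2.28 and 2.26 CPM against 3.10 and 1.58 CPM. The controls enclosed both libraries labelled knockout, with a log2 fold change of -0.06 ± 0.40 (SE, edgeR adjusted p = 0.985). Nkx6-1, which works with Pdx1 in beta cells, had 0 and 1 counts in the libraries labelled knockout and 5 and 0 counts in the controls. In the libraries at 0 counts, 3 counts would be 0.0804 CPM in labelled-knockout replicate 1 and 0.122 CPM in control replicate 2. Of the 19 endocrine factors and hormones, 3 had enough counts to be tested and edgeR called 0 of them, also at an unadjusted p under 0.05. DESeq2 and limma-trend on log2(RPKM + 1) called 0 as well.

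**Figure D3:**
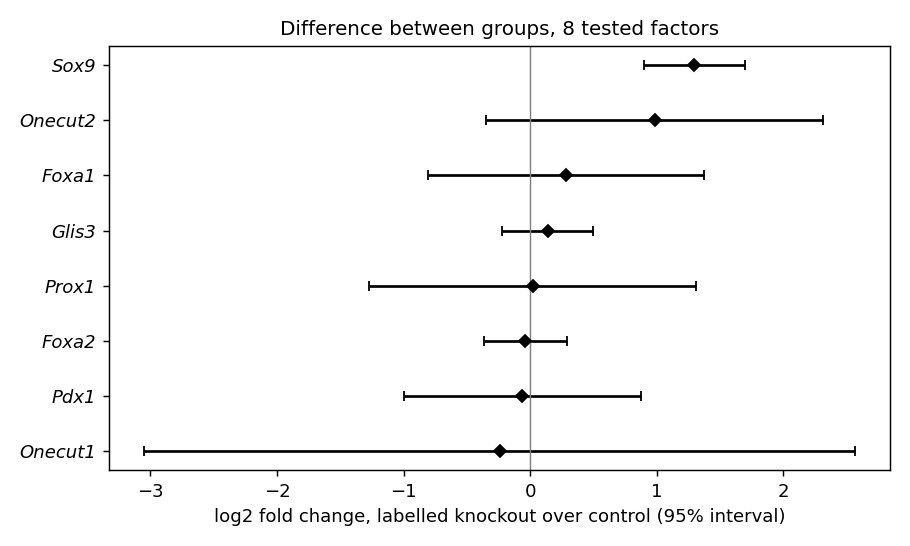
Log2 fold change, labelled knockout over control, of the 8 tested genes with 95% intervals from the edgeR fit. The interval of Sox9, 0.90 to 1.69, is the only one that does not cross 0, and that of Onecut1, -3.05 to 2.57, is the widest.

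Paralogs of the 9 showed no call. Of 9 listed, 7 were tested and edgeR called 0, as did DESeq2 and limma-trend on log2(RPKM + 1). At an unadjusted edgeR p under 0.05, which 7.51% of all transcripts reached, stood 1, Glis2. Glis2, a zinc finger relative of Glis3 tied to cystic kidney disease, was the highest per length, with 36.7 and 58.3 CPM in the libraries labelled knockout against 26.8 and 27.7 CPM in the controls (log2 fold change 0.80 ± 0.23 SE, edgeR adjusted p = 0.382). Prox2 and Foxa3 followed, with log2 fold changes of -0.20 and 0.23. The forkhead gene Foxa3 stood at 2.09 and 1.32 CPM against 1.49 and 1.46 CPM.

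Among 16 other factors of pancreas and duct epithelium, 15 were tested and edgeR called 0, as did DESeq2 and limma-trend on log2(RPKM + 1). At an unadjusted edgeR p under 0.05, which 7.51% of all transcripts reached, stood 3, Tead1 (higher) and Sox4 and Nr5a2 (lower). The median log2 fold change of the 15 was -0.05, and 7 were positive and 8 negative. The Notch effector Hes1 had 74.2 and 98.7 CPM in the libraries labelled knockout and 104 and 105 CPM in the controls. Sox4, an HMG-box relative of Sox9 active in endocrine progenitors, had 100.1 and 143 CPM against 193 and 192 CPM. For both genes the values of the libraries labelled knockout lay under both control values. Their log2 fold changes were -0.28 and -0.66, with edgeR adjusted p of 0.823 and 0.41. Of the 15 tested, 5 were lower without overlap and 3 higher, where 17.0% of all transcripts were lower and 19.1% higher. The epithelial ETS factor Ehf had 193 and 247 CPM against 231 and 244 CPM.

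Of 12 Notch pathway genes, 11 were tested and edgeR called 0, as did DESeq2 and limma-trend on log2(RPKM + 1). At an unadjusted edgeR p under 0.05, which 7.51% of all transcripts reached, stood 1 gene. That gene was the ligand gene Jag1, with 101 and 129 CPM in the libraries labelled knockout and 87.5 and 82.6 CPM in the controls. The receptor gene Notch2 had 70.2 and 72.4 CPM against 64.2 and 78.7 CPM and overlapped between the groups. Hes1, given above, was the highest of the list per length.

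Of 9 genes described as SOX9 targets in cartilage or pancreas, 7 were tested, with a median log2 fold change of -0.53. Krt19 and Fgfr2 were the 2 positive genes. The 5 negative were Spp1 and the low genes Col2a1, Col11a2, Col9a1 and Acan. Mean levels of these last were 1.02, 0.637, 0.086 and 0.086 RPKM over all libraries. edgeR called 0 of the 7. At an unadjusted edgeR p under 0.05, which 7.51% of all transcripts reached, stood 2, Fgfr2 (higher) and Col2a1 (lower). DESeq2 called 1, Fgfr2, beside 1.67% of its transcripts, and limma-trend on log2(RPKM + 1) called 0. Krt19, a ductal keratin, had 553 and 1014 CPM in the libraries labelled knockout and 625 and 753 CPM in the controls. Spp1, the osteopontin gene of ducts, had 228 and 148 CPM against 310 and 234 CPM. Fgfr2, the receptor of progenitor growth signals, had 213 and 247 CPM against 140 and 147 CPM, with a log2 fold change of 0.68 ± 0.16 (SE, edgeR adjusted p = 0.231).

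Of 24 duct and epithelial markers, all 24 were tested and edgeR called 1, Tm4sf4, which was lower, beside 0.153% of all transcripts. At an unadjusted edgeR p under 0.05, which 7.51% of all transcripts reached, stood 8, of which 4 were higher and 4 lower. DESeq2 called 2, Cftr and Tm4sf4, beside 1.67% of its transcripts. Limma-trend on log2(RPKM + 1) called 3, Ambp, Muc1 and Tm4sf4, beside 0.907%. Cftr, the chloride channel gene of ducts, had 13.1 and 22.9 CPM in the libraries labelled knockout and 33.6 and 35.1 CPM in the controls. Muc1, a mucin gene, had 1.79 and 7.35 CPM against 22.7 and 19.2 CPM, and Ambp had 0.589 and 0.645 CPM against 1.97 and 2.59 CPM. The 4 higher at an unadjusted edgeR p under 0.05 were Pkhd1, Tspan8, Bicc1 and Aqp5, the last high in labelled-knockout replicate 2 alone. Pkhd1 had 115 and 121 CPM in the libraries labelled knockout against 83.3 and 78.5 CPM in the controls. Tspan8 had 88 and 99.1 CPM against 48.4 and 67.7 CPM, and Bicc1 33.3 and 42.8 CPM against 28.9 and 24.4 CPM. These genes, Cftr, Muc1 and Ambp were named after their values were seen. Tm4sf4, an L6 family membrane protein, had 30.2 and 29.7 CPM in the libraries labelled knockout and 114 and 79.2 CPM in the controls (edgeR adjusted p = 0.0359). The median of the 24 was 0.07, with 14 positive and 10 negative. Krt18 and Krt8 overlapped between the groups, and the tight junction gene Cldn4 had 1625 and 1195 CPM against 1883 and 2255 CPM (edgeR adjusted p = 0.733).

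**Figure D4:**
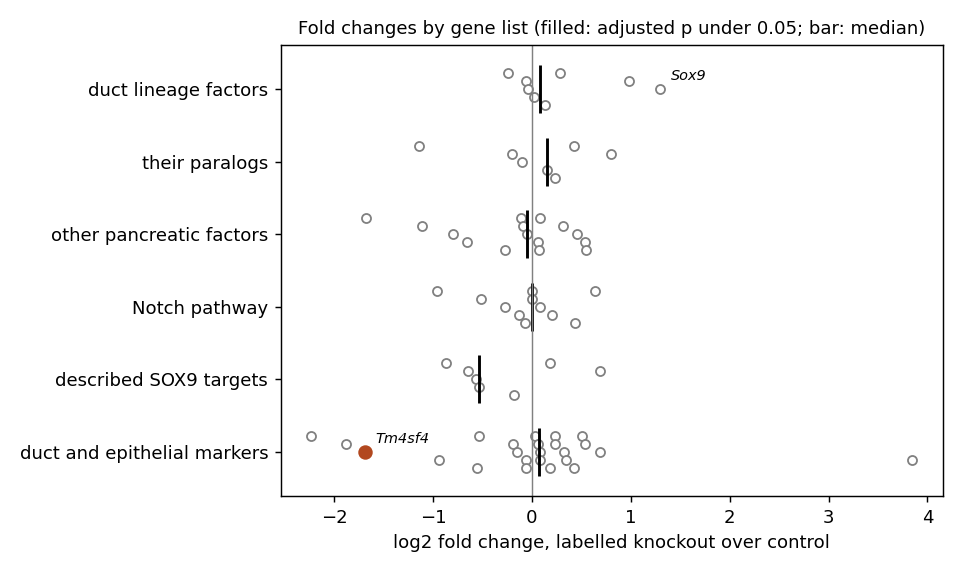
Log2 fold change, labelled knockout over control, of the tested genes of 6 lists, with 1 circle per gene and a bar at each list's median. The filled circle is Tm4sf4, the only gene shown that passed the edgeR threshold, and Sox9 is the rightmost of the duct lineage factors.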

How the data were processed

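Total RNA was extracted with RNeasy columns and made into TruSeq v2 libraries, per the labels' protocols. The authors deposited whole-number counts and RPKM values, 1 line per RefSeq transcript. The submitters' processing notes name mm9 as the genome build and edgeR as a tool. The aligner, the counter and its use of strand are not given in the sources used here. Judged from counts divided by the deposited RPKM, the authors' library denominators stood at 1.20 and 1.06 (labelled knockout) and 1 and 0.832 (control), relative to control replicate 1. The deposited count totals stood at 1.55, 1.21, 1 and 0.99, and the TMM-scaled totals used here at 1.36, 1.13, 1 and 0.899.

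The tests on counts used edgeR 4.0.16 in R 4.3.3: filterByExpr (minimum count 10), TMM, the quasi-likelihood F test without covariates, and Benjamini-Hochberg adjustment over all transcripts tested. edgeR estimated a common biological variation (a coefficient) of 0.234. With 2 libraries against 2, an exact two-sided permutation test of 1 gene cannot go below p = 0.333, so none is given. The series' text counts 2 mice in each group, and replicates are numbered in order of deposit. Alternatives were other scalings, filters and features, DESeq2 1.42.0, limma 3.58.1 on log2 of the deposited RPKM plus a pseudocount of 1 or 0.1, and leaving out each library. The older edgeR quasi-likelihood form and 22 limma settings (other filters, or no variance trend) were added after the data were seen. Intervals of single counts are exact Poisson intervals and cover counting error only.

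The members and gene lists were chosen with earlier results of these data known. Named genes were the 9 members, Hhex, of each companion list the 3 tested genes with the highest mean RPKM and every gene called by the edgeR quasi-likelihood test, and the 5 genes nearest to Sox9. Cell type lists were given by summed CPM and by genes at 0 counts in every library. Krt7, Krt19 as a marker, Xist and the single genes given for cell type lists were chosen after their values were seen. The same holds for genes named for an unadjusted p, DESeq2 or limma alone, and for Col11a2, Col9a1 and Acan.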

Additional observations from a re-analysis of the deposited data

How the results depend on the processing

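Transcripts called numbered 32 in edgeR with TMM. They numbered 5 with library totals or upper-quartile factors, 4 with at least 1 CPM in 2 libraries, 2 with 1 transcript per gene, 14 with counts summed per symbol, 64 in the robust edgeR fit, 270 in the edgeR exact test and 306 in DESeq2. Limma with a variance trend called 190 on log2(RPKM + 1) and 221 on log2(RPKM + 0.1) with edgeR's filter. Added after the data were seen, it called 0 with no filter at either pseudocount, 164 and 165 with an RPKM of at least 0.1 in 2 libraries, 235 and 205 with at least 1, 138 and 156 with a mean RPKM of at least 0.1, and 212 and 194 with at least 1. Without the trend it called 4 and 6 with edgeR's filter, 0 with no filter, 30 and 3 with an RPKM of at least 0.1 in 2 libraries, 170 and 205 with at least 1, 37 and 3 with a mean of at least 0.1, and 164 and 200 with at least 1. With 1 library left out the count ranged from 0 to 1911, where a lone library was taken to vary like the other group.

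Of the 9 genes, 0 were called in edgeR with TMM and 1, Sox9, in 18 of the 36 alternatives on all 4 libraries: DESeq2, the robust fit, the exact test, edgeR without X and Y genes, and 14 of 24 limma settings. In those the Sox9 log2 fold change was 1.31 in DESeq2, 1.30 in the robust fit and without X and Y genes, 1.295 in the exact test, and 1.15 and 1.34 in limma at the pseudocounts of 1 and 0.1. With 1 library left out Sox9 ranged from 1.15 to 1.46 and between 0 and 2 genes were called. Sox9 and Onecut2 were called without labelled-knockout replicate 1, Sox9 without replicate 2, and neither without a control. Directions turned for genes near 0. Prox1 was at -0.0608 with library totals, -0.0358 with upper-quartile factors and -0.00796 with 1 transcript per gene, and between -0.88 and 0.59 with 1 library left out. Foxa2 was at 0.0271 and 0.0285 in limma and between -0.13 and 0.00658 with 1 library left out. Pdx1 was at 0.0436 and 0.0925 in limma and between -0.41 and 0.52 with 1 library left out. With 1 library left out Foxa1 ranged from -0.19 to 0.95, Onecut1 from -6.29 to 0.61 and Onecut2 from -0.44 to 1.67. Glis3 kept its direction in all 40 alternatives. The causes were not tested. No paired analysis was possible because the labels give the groups no shared replicate number. Onecut1 and Nkx6-1 had at most 20 counts in any library, which limits what can be said of either. For Onecut1 the spread between libraries limits it as well.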

Other observations

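Aqp5, a water channel gene among the duct and epithelial markers that was picked after its values were seen, was like Onecut2 high in labelled-knockout replicate 2 alone. It had 0.750 and 57.2 CPM in the libraries labelled knockout and 1.42 and 2.59 CPM in the controls (log2 fold change 3.85 ± 1.52 SE, edgeR adjusted p = 0.603). Labelled-knockout replicate 1 was at least 2-fold above each other library in 87 of 15892 tested genes, control replicate 1 in 279 and control replicate 2 in 17.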
